A study of Mus musculus with 16 samples.

Results

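The collagen genes are the 41 protein-coding genes of the GENCODE M21 annotation whose symbol is Col, a type number, the letter a and a chain number, out of 18932 protein-coding genes on the 16 chromosomes that the comparison covered. Another 3 collagen genes lie on chromosomes that were not compared. Of the 41 genes, 39 had at least 1 measured CpG between 2000 bp upstream of the gene start and the gene end, and 2574 of the 1203687 CpGs compared lay in them. Col6a1, a chain of type VI collagen, and Col10a1, the collagen of hypertrophic cartilage, had none.

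Mouse embryonic fibroblasts were taken from sibling C57BL/6J embryos at E13.5 (embryonic day) and immortalised by serial passage, which gave the parental lines MEF-1 (male) and MEF-2 (female). Each of these was sequenced once, and 7 clonal lines per parental line were grown from single sorted cells and sequenced, which makes 16 libraries by target capture bisulfite sequencing (tcBS-seq). In this assay probes pull down chosen regions, bisulfite converts unmethylated cytosines, and the methylation level of a CpG is the percentage of its reads called methylated. GEO labels give no transgene, engineered allele or treatment for any line. Family means here a parental culture together with the lines cloned from it. Each family goes back to 1 embryo, so that embryo, sex, immortalisation and culture cannot be told apart in any difference between families.

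Collagens are trimeric proteins of the extracellular matrix, and each gene encodes 1 chain. Fibrillar collagens build cable-like fibres. Types I, III, V and XXIV, of which fibroblasts lay down the first 3, are grouped here as interstitial fibrillar collagens, while the fibrillar types II, XI and XXVII are grouped with cartilage. Basement membrane collagens (type IV networks, with types VII, XV and XVIII at the membrane and its anchorage) lie under epithelia and around vessels, while the cartilage group holds types II, IX, X, XI and XXVII. CpGs around the start of a transcribed gene are as a rule unmethylated, and those in the body of such a gene are as a rule methylated.

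The libraries held 59243669 to 90633091 calls (1 call is 1 read over 1 CpG), with a median of 26 to 39 reads per compared CpG. MEF-1 lines 1, 4 and 5 stood apart: their coverage of chromosome 18, which holds none of the compared CpGs, was 0.631 to 0.651 of that in the median MEF-2 line. The levels of these 3 lines differed by 6.57 to 6.85 points per CpG on average from each other, against 7.26 to 8.57 points for the other MEF-1 pairs and 7.94 to 9.97 points for MEF-2 pairs. Promoters of marker genes were read as a check of the label. Of the 6 fibroblast and mesenchyme promoters with at least 3 measured CpGs, Vim, Twist2 and Fn1 were under 10% in both families, and S100a4 was at 55% ± 7.39 (SD over 7 lines) in MEF-1 and 55.7% ± 9.64 in MEF-2. Prrx1 (3 CpGs) and Pdgfra (32 CpGs), which also mark mesenchyme, were at 85.9% ± 5.88 and 44.8% ± 1.36 in MEF-1 against 16.6% ± 14.3 and 2.99% ± 1.07 in MEF-2. The median of these 6 promoters was 13.9%. Promoters of other cell types had median levels of 39.3% for epithelium (6 genes, 9.49 to 88.7%), 66.2% for endothelium (4), 69.3% for leukocytes (2) and 12.4% for chondrocytes (3). In the test of families described below, 3 fibroblast, 5 epithelium, 3 endothelium, 2 chondrocyte and 0 leukocyte promoters were called (43.1% of all promoters). Of these, 3, 5, 2 and 1 were higher in MEF-1, in the same order without leukocytes. Of all promoters, 26.9% were called as higher in MEF-1 and 16.2% as higher in MEF-2. The part of these markers in the results below was not tested.

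Collagen promoters were measured unevenly. A CpG counts as measured only where every library had enough reads over it. Unmeasured CpGs may therefore lie outside the captured regions or have had too few reads, and which of these held was not tested. A promoter here runs from 2000 bp upstream to 500 bp downstream of the gene start, and the body from there to the gene end. Measured CpGs made up 18.1% of the reference CpGs of collagen promoters (440 of 2436) and 4.65% of those of the bodies (2191 of 47110). At least 3 CpGs were measured in 21 promoters, while 18 promoters had 0, including those of Col1a1, Col1a2 and Col3a1. The 20 promoters with fewer than 3 measured CpGs held a median of 41 reference CpGs, against 72 in the 21 that could be tested. All 39 bodies had at least 3.

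By distance from the gene start, collagen CpGs were low around the start and high farther in. In the first 500 bp of the genes, 223 CpGs of 17 genes averaged 7.63% in MEF-1 and 6.75% in MEF-2 clonal lines. Between 3000 and 5000 bp, 75 CpGs averaged 56.9 and 62.1%, and between 5000 and 10000 bp, 103 CpGs averaged 75.6 and 78.2%. Between 3000 and 5000 bp, the 21 cartilage CpGs, all of 1 gene, were at 26.7 and 30.6%, and the 31 basement membrane CpGs, of 2 genes, were at 85.8 and 86.9%. Between 2000 and 3000 bp, cartilage collagens had 6.26 and 5.00% (58 CpGs of 5 genes), and basement membrane collagens had 2 measured CpGs in 1 gene. Other genes stand in each bin and the classes were not tested against each other. By annotation, coding exons were highest (66.8 and 67.3%, 286 CpGs), followed by introns (46.5 and 46.3%, 1984 CpGs), and parts of noncoding exons (19.7 and 19.4%, 144 CpGs) and upstream sequence (21.1 and 20.4%, 217 CpGs) were lowest.

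**Figure D1:**
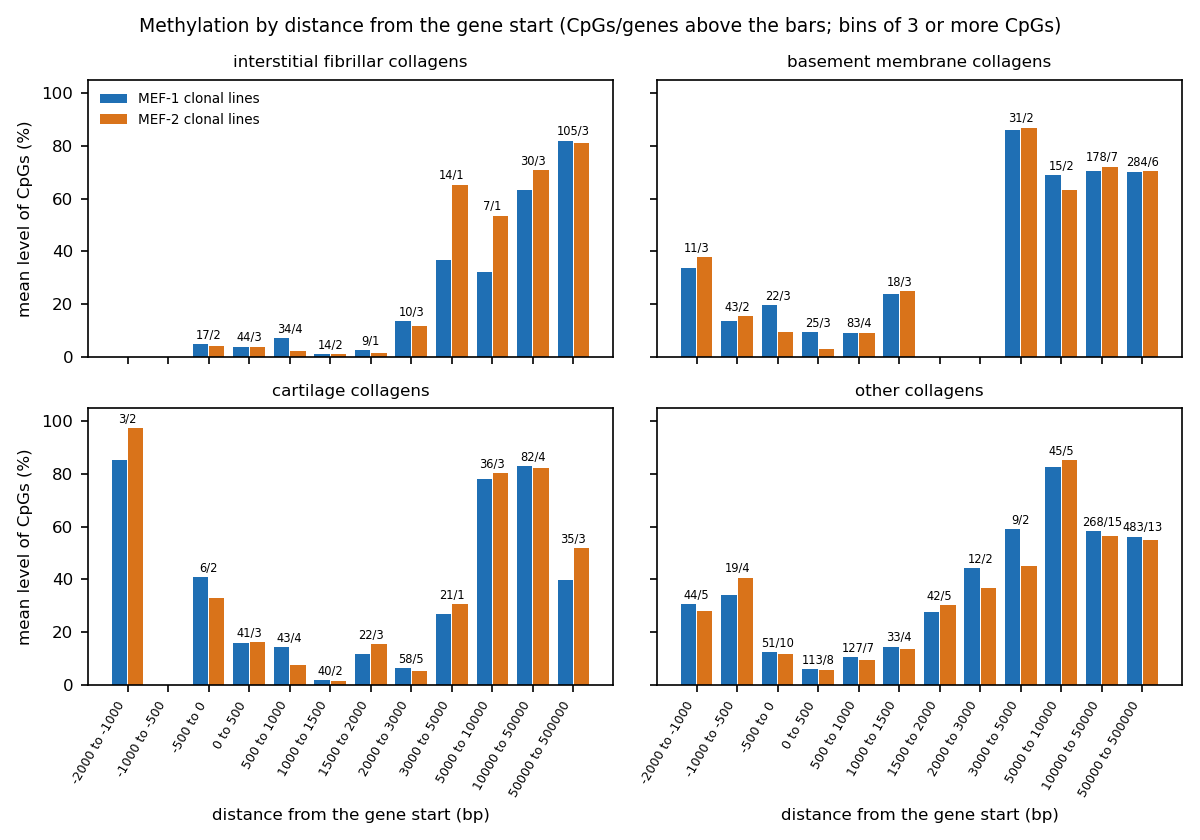
Mean level of collagen CpGs (%) in bins of distance from the gene start (bp) for each class, in MEF-1 and MEF-2 clonal lines, with the numbers of CpGs and genes above each bin. Interstitial fibrillar CpGs are at 3.75 and 3.60% in the first 500 bp and at 0.945 and 1.02% between 1000 and 1500 bp, cartilage CpGs are at 15.6 and 16.2% and then at 1.84 and 1.37% in the same bins, and every class is higher between 5000 and 10000 bp than in the first 500 bp.

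Class means were first taken per line over genes. Interstitial fibrillar promoters (2 genes) had 4.05% ± 1.87 in MEF-1 and 5.39% ± 1.73 in MEF-2 (4.72% over both families, and 8.648% with at least 20 reads, which left 1 gene), and interstitial fibrillar bodies (7 genes) 39.3% ± 1.01 and 39.9% ± 0.860. Basement membrane promoters (4 genes) had 15.0% ± 1.81 and 11.3% ± 1.78, and their bodies (7 genes) 62.5% ± 0.519 and 65.1% ± 1.30. Cartilage promoters (3 genes) were the highest of the 3 classes and spread most over lines, with 31.3% ± 5.12 and 28.8% ± 5.20, while cartilage bodies (7 genes) had 45.2% ± 1.22 and 47.0% ± 1.82. Few promoters stand behind these means, so they describe the measured genes and not the classes at large. Body means also depend on where in a gene CpGs were measured. Col1a2 (1.73 and 1.32%) and Col3a1 (1.45 and 1.23%) had body CpGs near the gene start only. In Col27a1, 65 of the 115 body CpGs lay from +827 to +2425, at 3.94 and 2.76%.

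Families were compared gene by gene, with a quasi-binomial model of the pooled reads over 14 clonal lines and Benjamini-Hochberg adjustment over the promoters or bodies of all genes (called: adjusted p under 0.05). Of the 21 collagen promoters 7 were called, where 43.1% of all 12388 promoters were. In 6 of them the level was higher in MEF-1 (26.9% of all promoters were called in that direction) and in 1 it was higher in MEF-2 (16.2%). Clonal lines of the families did not overlap at 5 promoters (24.3% of all). With limma on the mean levels, 10 collagen promoters were called (50.7% of all). The calls fell on 3 of 4 basement membrane promoters, 0 of 2 interstitial fibrillar, 0 of 3 cartilage and 4 of 12 other promoters.

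Of the 39 bodies 18 were called, where 47.7% of all 13875 bodies were. The direction was higher in MEF-1 for 10 (30.1% of all bodies) and higher in MEF-2 for 8 (17.6%), and 7 differed by at least 10 points (16.7% of all). Lines of the families did not overlap at 11 bodies (30% of all), and limma called 23 (58.3% of all). By class, 3 of 7 interstitial fibrillar, 4 of 7 basement membrane, 3 of 7 cartilage and 8 of 18 other bodies were called. Without MEF-1 lines 1, 4 and 5 7 collagen promoters were called (33.3% of 21, where 32.8% of all promoters were) and 13 bodies (33.3% of 39, where 37% of all bodies were). The median absolute difference was 3.15 points for collagen promoters and 2.33 for all promoters, and 3.81 against 3.53 points for bodies. The shares of collagen genes called were near or below those of all genes.

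**Figure D2:**
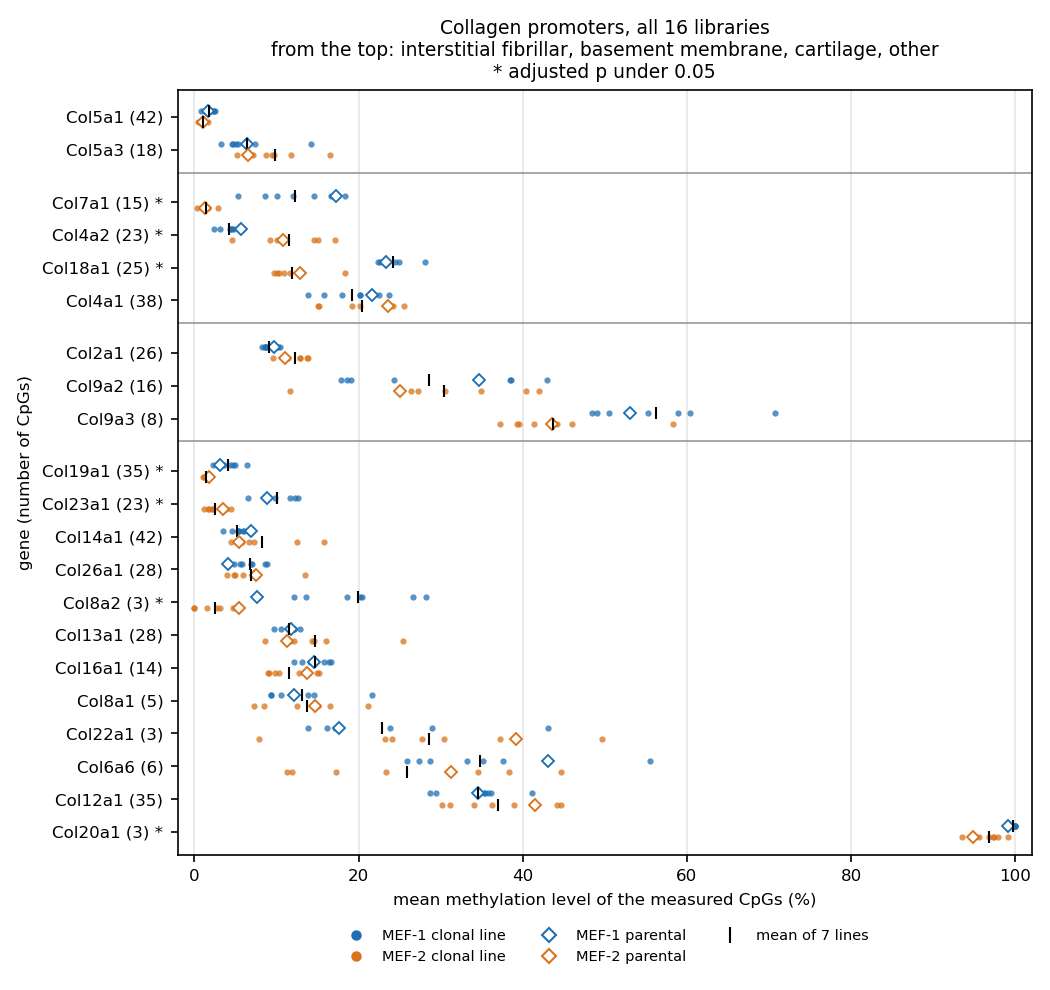
Mean methylation level (%) of each collagen promoter with at least 3 measured CpGs in the 16 libraries, grouped by class, with clonal lines and parental libraries as separate marks for each family and asterisks at called genes. MEF-1 and MEF-2 lines are separate at Col18a1 (22.4 to 28.1 against 9.70 to 18.4%) and mixed at Col9a2.

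Among interstitial fibrillar collagens, Col5a1, a type V chain that starts and limits fibrils, had a low promoter with 42 measured CpGs. The level was 0.783, 1.42 and 2.56% (lowest, median and highest MEF-1 line) and 0.398, 0.925 and 1.70% in MEF-2 lines. Lines of both families overlapped, and the difference was not called (adjusted p = 0.0825), although it was without MEF-1 line 4 (adjusted p = 0.0489) or without MEF-2 line 2 (adjusted p = 0.0128). The low levels ran on into the gene, where 53 CpGs from +217 to +944 had 1.59% ± 0.570 and 0.985% ± 0.288. The upstream stretch below shows what was measured there, with the 8 measured CpGs in capitals (chr2:27885910-27886121, + strand, mm10/GRCm38, -515 to -304 from the start).
Col5a1 upstream: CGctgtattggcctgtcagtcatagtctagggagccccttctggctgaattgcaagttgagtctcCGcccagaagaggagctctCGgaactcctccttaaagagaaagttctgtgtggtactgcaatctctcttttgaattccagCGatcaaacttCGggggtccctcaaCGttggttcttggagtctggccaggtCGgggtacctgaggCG

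Col5a3, the third type V chain, had 6.37% ± 3.66 and 9.78% ± 3.60 at 18 promoter CpGs (adjusted p = 0.0986), with overlapping lines, and was called as higher in MEF-2 without MEF-1 line 3, its highest MEF-1 line (adjusted p = 0.0203), while in the 1000 bp upstream alone the difference turned to 1.383 points (adjusted p = 0.713). Its body was higher in MEF-2, at 52.7% ± 2.64 against 47.3% ± 2.18 (adjusted p = 0.00489, and 0.0574 without MEF-1 lines 1, 4 and 5). The bodies of Col5a1 and Col5a2, the second type V chain, were high and not called: Col5a1 had 69.5% ± 1.15 and 70.4% ± 1.10, and Col5a2 had 62.5% ± 5.04 and 58.6% ± 4.80 at 9 CpGs. With at least 20 reads, which left fewer CpGs, the Col5a1 difference turned and was called as higher in MEF-1 (4.205 points, adjusted p = 0.00321). Without MEF-1 line 3, Col5a2 was called as higher in MEF-1 (adjusted p = 0.0497).

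Col1a2 and Col3a1 were measured only near the start of the gene. Col1a2, the second chain of type I collagen, had 17 CpGs from +929 to +1874 and levels of 1.73% ± 0.569 and 1.32% ± 0.436 (adjusted p = 0.312). Transcript starts of Col1a2 are annotated at +679 (GENCODE) and +804 (RefSeq), so some of these body CpGs lie next to a start. The 4 CpGs within 500 bp of either start had 1.46% ± 1.27 and 1.73% ± 1.36. Col3a1, the chain of type III collagen, had 4 CpGs at 1.45% ± 0.934 and 1.23% ± 1.18 (adjusted p = 0.987). Every line was under 4% at both genes.

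Col1a1, the main chain of type I collagen, had the largest called body difference among interstitial fibrillar collagens. The 41 measured CpGs of its body had 15.6, 20.2 and 22.7% (lowest, median, highest) in MEF-1 lines and 33.2, 36.0 and 41.2% in MEF-2 lines. Every MEF-1 line was below every MEF-2 line, by 15.9 points on average (19.7% ± 2.75 against 35.7% ± 2.74, adjusted p = 6.9e-06). On the same measure, the mean over CpGs, the MEF-1 parental library had 19.4%, within the range of its lines, and the MEF-2 parental library 32.6%, just below the lowest of its lines. In pooled reads the parental values were 18.1% (95% Wilson interval 16.2 to 20.1) and 38.1% (35.9 to 40.4). Without MEF-1 lines 1, 4 and 5 the difference was -17.73 points, MEF-1 minus MEF-2 (adjusted p = 0.000446).

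The first intron of Col1a1 was low in both families. There, 17 CpGs from +772 to +1497 had 0.168 to 2.13% in MEF-1 and 0.441 to 2.28% in MEF-2 lines, and none of them was called. From +3003 to +3828, across short coding exons and introns, 14 CpGs had 30.3, 38.7 and 39.6% in MEF-1 lines and 59.4, 63.0 and 75.5% in MEF-2 lines. The parental libraries were at 33.9 and 61.9%, on the side of their own lines. Another stretch of 5 CpGs from +8155 to +8330 had 36.9% ± 5.88 and 70.6% ± 7.43. Of the 14 called CpGs in the gene, 13 were higher in MEF-2, and the exception at +6294 had 34.4% ± 18 in MEF-1 against 1.56% ± 2.67 in MEF-2.

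Sequences from the low intron and the differing stretch of Col1a1 are given to place these CpGs. In the intron piece (chr11:94937134-94937300, + strand, +910 to +1076) capitals mark the 7 measured CpGs, and in the piece from +3488 (chr11:94939712-94939978, + strand) they mark the 6 called CpGs of 8 measured.
Col1a1 intron 1: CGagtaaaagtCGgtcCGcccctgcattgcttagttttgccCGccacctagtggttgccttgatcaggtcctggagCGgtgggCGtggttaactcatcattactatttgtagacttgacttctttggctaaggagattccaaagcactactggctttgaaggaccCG
Col1a1 from +3488: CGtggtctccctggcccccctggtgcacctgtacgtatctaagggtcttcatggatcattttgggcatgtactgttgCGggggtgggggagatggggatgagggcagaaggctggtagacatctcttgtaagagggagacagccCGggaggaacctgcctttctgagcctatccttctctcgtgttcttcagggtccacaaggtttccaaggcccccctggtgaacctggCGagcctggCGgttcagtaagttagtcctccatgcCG
At +3488, in a coding exon, MEF-1 lines had 36.5% ± 26.4 and MEF-2 lines 95.8% ± 4.62. At +3565, in an intron, they had 2.99% ± 2.93 against 54.1% ± 21.3. At the coding CpG +3727 the values were 36.7% ± 18.6 and 97.1% ± 2.03. The SD over MEF-1 lines was larger than that over MEF-2 lines at +3488 and +3727, and smaller at +3565.

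**Figure D3:**
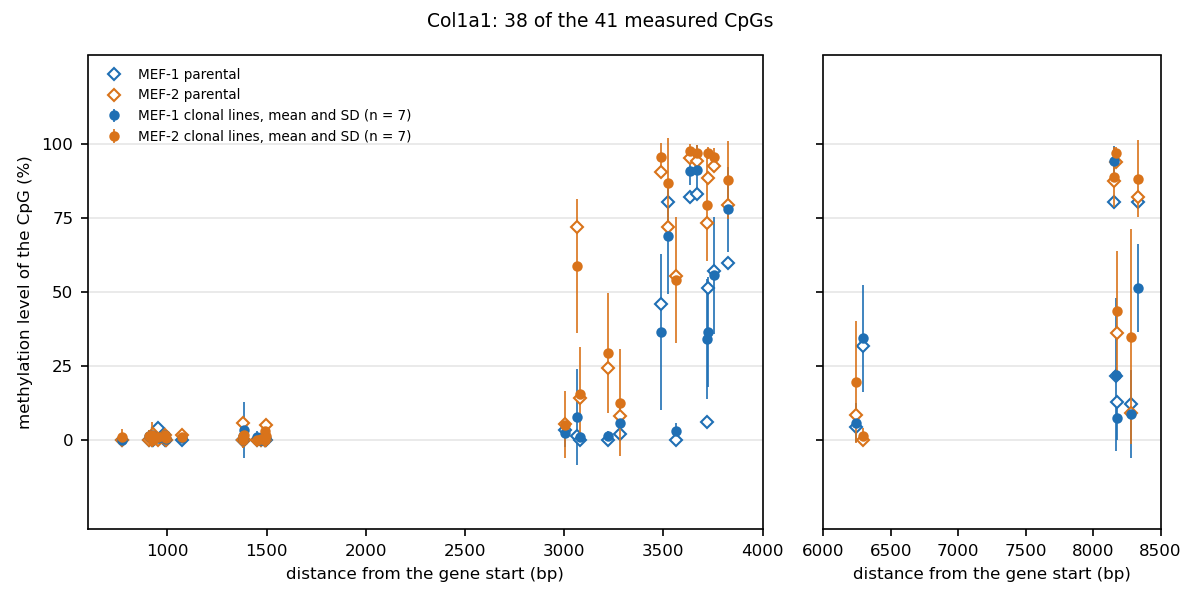
Methylation level (%) of 38 of the 41 measured CpGs of Col1a1, in 2 panels, against the distance from the gene start (bp), as the mean of MEF-1 and of MEF-2 clonal lines with SD and the parental libraries. The intron 1 CpGs lie near 0 in both families, and from +3003 to +3828 MEF-2 (65.2% on average) lies above MEF-1 (36.8%).

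Col24a1, a minor fibrillar chain of developing bone, was higher in MEF-1. Its body (25 CpGs) had 67.9, 74.0 and 76.1% in MEF-1 lines and 57.0, 59.5 and 63.6% in MEF-2 lines, with no overlap (adjusted p = 8.2e-05). The 6 CpGs from +404 to +601 had 43.9% ± 7.02 against 7.19% ± 6.45. This stretch holds the 2 CpGs measured in its promoter, and the rest of the stretch counts in the body, so the 3 values are not separate. The 2 promoter CpGs, too few for a test, had a mean of 29.2% ± 13.2 in MEF-1 against 2.94% ± 3.00 in MEF-2.

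Among basement membrane collagens, the promoter of Col18a1, whose C-terminal fragment is endostatin, was higher in MEF-1. Its 25 CpGs had 22.4, 23.4 and 28.1% (lowest, median, highest) in MEF-1 lines and 9.70, 10.9 and 18.4% in MEF-2 lines. The families did not overlap (24.2% ± 1.96 against 11.9% ± 3.00, adjusted p = 2.6e-04). The parental libraries, at 23.3% and 12.8%, lay within the range of their own lines. In pooled reads, where deeply read CpGs weigh more, they had 18% (95% Wilson interval 15.8 to 20.4) and 9.19% (7.52 to 11.2). The stretch below holds 3 called CpGs of this promoter, in capitals, among 8 measured (chr10:77166589-77166848, written 5′ to 3′ on the - strand of the gene, -300 to -41).
Col18a1 upstream: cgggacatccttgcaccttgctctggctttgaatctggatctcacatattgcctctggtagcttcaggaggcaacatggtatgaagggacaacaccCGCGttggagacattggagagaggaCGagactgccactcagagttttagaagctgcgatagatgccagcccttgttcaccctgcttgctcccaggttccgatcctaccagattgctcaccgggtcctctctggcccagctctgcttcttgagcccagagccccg
At -203 and -201, the pair written as CGCG, levels were 45.5% ± 11.3 and 46.0% ± 9.93 in MEF-1 against 8.63% ± 17.8 and 6.40% ± 16.9 in MEF-2. The CpG at -178 was at 91.5% ± 13.2 in MEF-1 lines and at 11.2% ± 13.54 in MEF-2. The CpG at -299 was high in both (98.2% ± 3.08 and 100% in each line), and that at -41 was 0% in every clonal line.

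A second start of Col18a1 is annotated inside the gene, at +52843. The 13 CpGs within 500 bp of it had 80.8% ± 3.04 in MEF-1 and 86.8% ± 5.09 in MEF-2, whereas the 23 CpGs within 500 bp of the gene start had 17.7% ± 2.11 and 7.47% ± 2.98. The body as a whole (202 CpGs) was higher in MEF-2 by a small margin (60.4% ± 0.504 against 58.1% ± 0.861, adjusted p = 8.3e-04), opposite to the promoter.

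Col7a1, the collagen of the anchoring fibrils that hold skin together, was also higher in MEF-1 at the promoter and higher in MEF-2 over the body. Its promoter (15 CpGs) had 5.29, 12.0 and 18.4% in MEF-1 lines and 0.278, 1.50 and 2.91% in MEF-2 lines. All MEF-1 lines were above all MEF-2 lines (adjusted p = 1.3e-04), and the parental libraries had 17.3% and 1.26%, within the range of their own lines (in pooled reads 16%, interval 13 to 19.6, and 1.22%, 0.591 to 2.49). The 3 called CpGs lay at +20, +23 and +25 in the noncoding part of the first exon, with 40.9% ± 13.2, 38.2% ± 13.7 and 41.1% ± 12.8 in MEF-1 against 3.36% ± 3.42, 1.35% ± 2.32 and 0.376% ± 0.995 in MEF-2. With at least 20 reads required, which left fewer CpGs, the promoter difference was 1.85 points (adjusted p = 0.0823). The body (23 CpGs) had 84.5% ± 2.79 in MEF-1 against 92.9% ± 1.37 in MEF-2 (adjusted p = 4.6e-04), and with the body counted from the gene start the difference was -2.01 points (adjusted p = 0.123).

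Col4a1 and Col4a2 encode the main chains of type IV collagen and start head to head on chromosome 8, so 57 CpGs count for both. The Col4a2 promoter (23 CpGs) had 4.23% ± 1.15 in MEF-1 and 11.6% ± 4.27 in MEF-2 (adjusted p = 0.00171). It was the 1 collagen promoter called as higher in MEF-2. At its CpG -554 the level was 1.61% ± 2.77 in MEF-1 against 68.4% ± 24.1 in MEF-2.

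The Col4a1 promoter (38 CpGs) was not called as a whole, with 19.1% ± 3.53 and 20.4% ± 4.24 (adjusted p = 0.829), although single CpGs differed in both directions. In the upstream stretch below (chr8:11313319-11313438, 5′ to 3′ on the - strand of Col4a1, -612 to -493), capitals mark the 3 called CpGs of 7 measured.
Col4a1 upstream: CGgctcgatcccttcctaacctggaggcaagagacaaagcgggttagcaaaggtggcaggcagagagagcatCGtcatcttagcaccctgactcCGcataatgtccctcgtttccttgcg
From the left these are -611, -539 and -517, with 41.5% ± 10.6, 46.9% ± 6.34 and 44.0% ± 9.25 in MEF-1 and 10.5% ± 15.5, 2.32% ± 2.45 and 3.68% ± 2.74 in MEF-2. At -883 the direction was opposite, with 14.9% ± 7.95 for MEF-1 lines and 92.1% ± 8.71 for MEF-2 lines. The bodies of both genes were not called: Col4a1 had 64.4% ± 1.31 and 63.3% ± 3.52 (adjusted p = 0.551), and Col4a2 had 46.9% ± 2.36 and 46.8% ± 2.44 (adjusted p = 0.89).

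Col4a3 and Col4a4, chains of the type IV network of kidney and lung, had no measured promoter CpGs. The Col4a4 body (30 CpGs) was higher in MEF-2, with 49.4, 53.7 and 61.0% against 35.1, 41.6 and 49.3% in MEF-1 lines. The families just failed to overlap (adjusted p = 0.0153), and without MEF-1 lines 1, 4 and 5 the call was lost (adjusted p = 0.131). Col4a3, with 69.4% ± 2.07 and 70.7% ± 2.15, was not called (adjusted p = 0.154), but was without those 3 lines, as higher in MEF-2 (adjusted p = 0.0433). Col15a1, a proteoglycan collagen next to vessel basement membranes, was higher in MEF-1 over its body (71.7% ± 2.41 against 67.2% ± 1.69, adjusted p = 0.00505, and 0.0529 without MEF-1 lines 1, 4 and 5), but its stretches went both ways. The 14 CpGs from +26623 to +26880 had 55.1% ± 7.89 and 35.2% ± 5.51, and the 7 from +38842 to +38960 had 58.8% ± 8.48 and 87.6% ± 4.41.

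Among cartilage collagens, Col2a1, the main chain of cartilage fibrils, was low over a long region in both families. The 53 CpGs from +192 to +1296 had 1.53% ± 0.170 and 1.81% ± 0.569, and the 46 CpGs from +2011 to +3831 had 3.09% ± 0.649 and 3.03% ± 1.40. The promoter (26 CpGs) had 9.09% ± 0.880 and 12.2% ± 1.53 and was not called in pooled reads (adjusted p = 0.0986), while limma called it as higher in MEF-2 (adjusted p = 0.00133). With the 1000 bp upstream only, which holds fewer CpGs, its difference was -19.5 points (adjusted p = 0.0228). The body was slightly higher in MEF-2 (34.6% ± 0.988 against 33.0% ± 1.40, adjusted p = 0.00687), a call that limma did not make (adjusted p = 0.0719). Col27a1, a long fibrillar chain of cartilage, was similar. The 65 CpGs from +827 to +2425 had 3.94% ± 0.633 and 2.76% ± 0.479, and 35 CpGs around a RefSeq start at +1408 had 2.61% ± 0.690 and 1.15% ± 0.194. Its body had 34.0% ± 0.588 and 34.2% ± 0.947 (adjusted p = 0.614).

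Type IX collagen, which coats type II fibrils, differed between its chains. The Col9a2 promoter (16 CpGs) had 17.9, 24.3 and 42.9% in MEF-1 lines and 11.6, 30.5 and 42.0% in MEF-2 lines. The lines of the families were fully mixed (adjusted p = 0.99), and the SD over lines was 11 points in MEF-1 and 10.3 in MEF-2. Sampling of calls, taken as independent, would give 2.41 and 2.12 points. The SD over lines exceeded this sampling value at 20 of the 21 collagen promoters in MEF-1 and at 18 in MEF-2. Neighbouring CpGs can share reads, so the sampling values may be too low. At the Col9a2 promoter, MEF-1 lines 1, 4 and 5 were at 38.4, 42.9 and 38.6% and lines 2, 3, 6 and 7 at 17.9, 18.6, 19.1 and 24.3%. The parental libraries had 34.7% and 25.03%, each within the range of its lines (in pooled reads 34.6%, interval 29.9 to 39.7, and 25.1%, 21.3 to 29.4). The Col9a2 body (26 CpGs) had 40.5% ± 2.44 and 49.2% ± 5.65, which the pooled model did not call (adjusted p = 0.319) and limma on the mean levels did (adjusted p = 0.00339).

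The Col9a3 promoter (8 CpGs) had 56.2% ± 7.94 in MEF-1 and 43.7% ± 7.12 in MEF-2, a difference of 12.5 points that was not called in pooled reads (6.0 points, adjusted p = 0.262) and was called by limma (adjusted p = 0.0122). Its CpGs went in opposite directions. The CpG at -258 was at 97.2% ± 5.42 in MEF-1 and 11.9% ± 9.42 in MEF-2 lines, at +18 it was 23.3% ± 23.1 against 97.1% ± 4.02, and at +140 it was 54.2% ± 13.1 against 4.83% ± 5.38. The upstream stretch (chr2:180597532-180597724, + strand, -258 to -66) starts with the first of these, and capitals mark its 3 measured CpGs.
Col9a3 upstream: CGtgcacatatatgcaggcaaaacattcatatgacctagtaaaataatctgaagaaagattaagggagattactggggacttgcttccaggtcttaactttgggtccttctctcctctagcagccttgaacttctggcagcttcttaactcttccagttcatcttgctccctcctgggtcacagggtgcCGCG
Its body was higher in MEF-1 (46.3% ± 3.07 against 39.4% ± 3.26, adjusted p = 0.0353), and this call was lost when any one of MEF-1 lines 5, 6 and 7 or MEF-2 lines 2, 3, 4 and 7 was left out (adjusted p = 0.0548 to 0.0757). Col9a1 was measured at 6 body CpGs alone, of which 2 were called, both higher in MEF-2. The mean over the 6 was higher in MEF-2 (40.9, 42.7 and 50.1% against 55.1, 60.7 and 65.8%, no overlap, adjusted p = 0.00223, and 0.149 with at least 20 reads, which left fewer CpGs). The intronic CpG at +68238 was at 2.21% ± 3.81 in MEF-1 lines, against 88.1% ± 10.1 in MEF-2 lines.

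Col11a1 and Col11a2 encode type XI chains, which lie in the core of cartilage fibrils, and neither promoter was measured. The Col11a1 body (17 CpGs) had 42.3% ± 4.03 and 48.6% ± 2.33 (adjusted p = 0.243, while limma called it with adjusted p = 0.00509), with 37.0% ± 6.69 against 76.0% ± 6.84 at the 5 CpGs from +76588 to +76771. The Col11a2 body (21 CpGs) had 75.5% ± 3.53 in MEF-1 and 62.3% ± 3.76 in MEF-2 without overlap, which limma called (adjusted p = 2.7e-05) and the pooled model did not (3.67 points in pooled reads, adjusted p = 0.185). With at least 20 reads, which left fewer CpGs, the difference turned to -3.277 points (adjusted p = 0.268). Deeply read CpGs weigh more in the pooled value than in the mean.

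**Figure D4:**
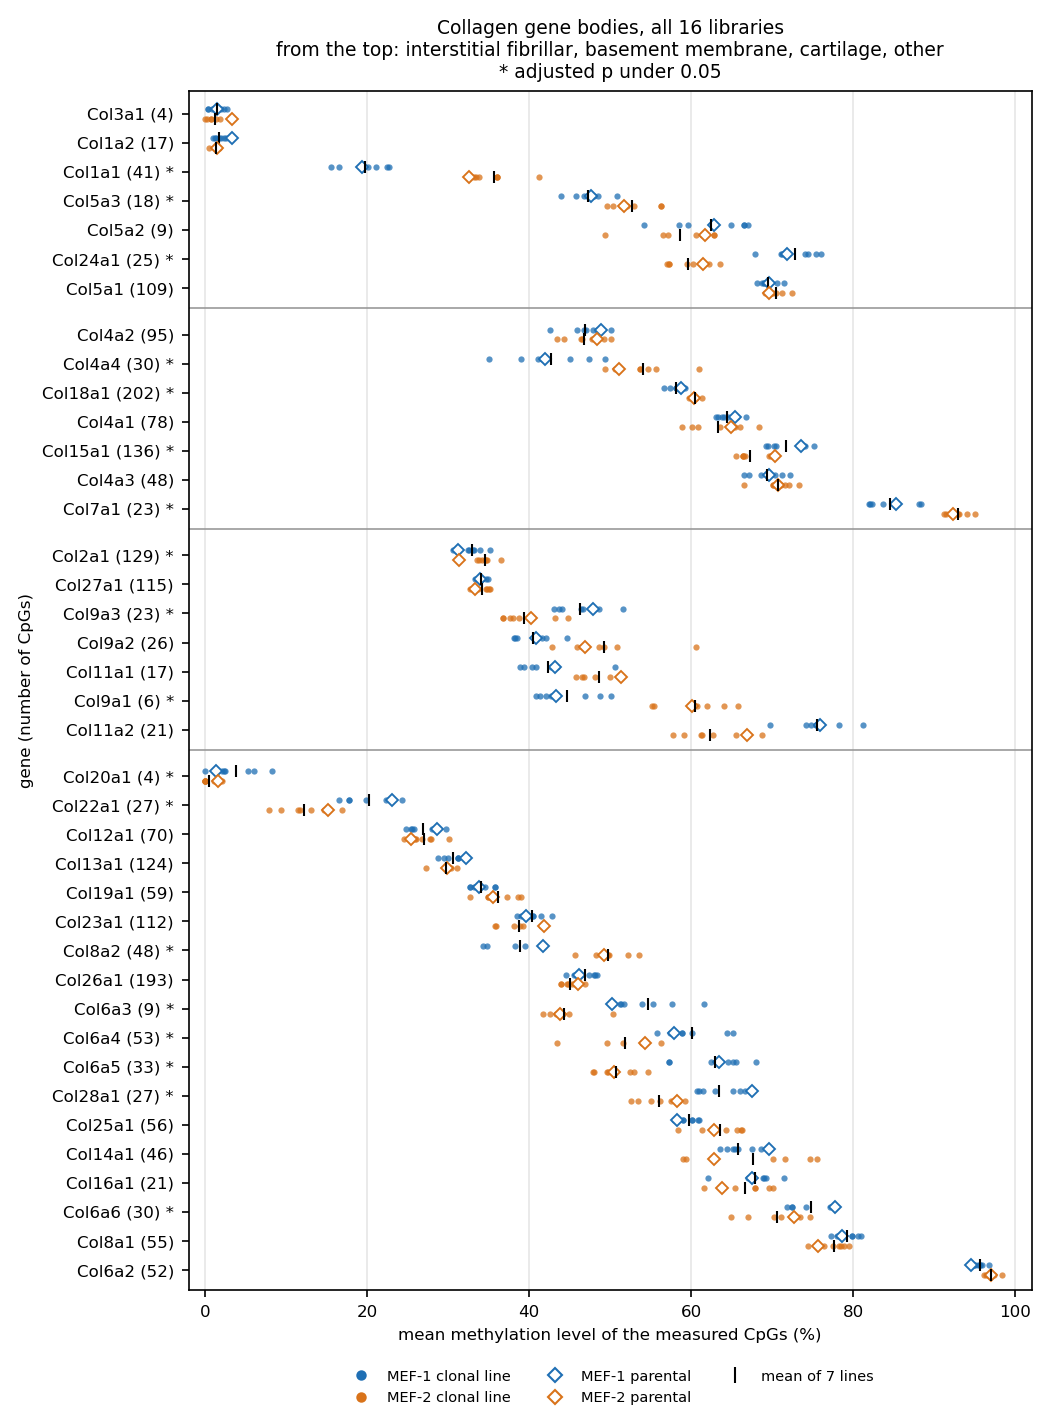
Mean methylation level (%) of each collagen gene body in the 16 libraries, grouped by class, with clonal lines and parental libraries as separate marks for each family and asterisks at called genes. Col1a1 (19.7 against 35.7%) and Col9a1 (44.7 against 60.4%, over 6 CpGs and mostly from 1 of them) are higher in MEF-2, and Col24a1 (72.9 against 59.6%) is higher in MEF-1.

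Of the other collagens, Col8a2, a network-forming chain of the corneal Descemet membrane, was called in promoter and body in opposite directions. The promoter (3 CpGs) had 12.1, 20.2 and 28.2% in MEF-1 lines and 0, 2.78 and 5.13% in MEF-2 lines (adjusted p = 1.1e-04). The parental libraries were close to each other, at 7.58% (MEF-1) and 5.39% (MEF-2), each outside the range of its own lines. Of the 3 promoter CpGs the one at -190 was called, with 50.3% ± 17.7 against 5.03% ± 5.76. The body (48 CpGs) was lower in MEF-1 (38.9% ± 3.23 against 49.8% ± 2.62, adjusted p = 0.0011). Type VI collagen, the microfilament collagen around cells, had 2 body differences of at least 10 points, both higher in MEF-1: Col6a5 had 62.9% ± 4.17 and 50.8% ± 2.62 (adjusted p = 8.3e-04), and Col6a3 (9 CpGs) had 54.7% ± 3.87 and 44.4% ± 2.83 (adjusted p = 0.00975, and 0.0726 without MEF-1 lines 1, 4 and 5). In Col6a3 the 5 CpGs from +3432 to +3773 had 26.9% ± 5.55 and 3.18% ± 4.65. The 4 from +13524 to +13806 went the other way, with 89.4% ± 4.70 and 95.8% ± 1.85. The Col6a4 body, with 60.1% ± 3.49 and 51.8% ± 4.25, was called by a smaller margin (adjusted p = 0.0372), which was lost without any one of lines 1, 5 and 7 of MEF-1 or 5, 6 and 7 of MEF-2 (adjusted p = 0.0529 to 0.0762), or without MEF-1 lines 1, 4 and 5 together (adjusted p = 0.213).

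Other called promoters, named after their values were seen, were those of Col23a1 (10.0% ± 2.23 against 2.45% ± 1.22, adjusted p = 5.7e-05), Col19a1 (4.15% ± 1.41 against 1.44% ± 0.283, adjusted p = 0.00282) and Col20a1 (99.7% ± 0.536 against 96.8% ± 1.79, adjusted p = 0.00714). With a promoter of the 1000 bp upstream only, Col23a1 showed a difference of -0.00686 points. Among promoters with at least 3 measured CpGs, lines of 1 family spread most at those of Col6a6 (34.8% ± 10.1 and 25.9% ± 13.4, 6 CpGs) and Col22a1 (22.9% ± 10.3 and 28.6% ± 12.9, 3 CpGs), neither of which was called. Among bodies the largest SD over lines was in MEF-2 at Col14a1, a fibril-associated collagen (7.07 points against 1.75 in MEF-1). Its lines ran from 59.0 to 75.6% in MEF-2 and from 63.6 to 68.7% in MEF-1.

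At single CpGs, 482 of the 2574 collagen CpGs were called between families (18.73%), where 20.2% of all CpGs were. Of these, 249 were higher in MEF-1 (11.6% of all CpGs) and 233 higher in MEF-2 (8.53%), and 81 (3.15%) differed by at least 50 points, where 4.34% of all CpGs did. Without MEF-1 lines 1, 4 and 5, 325 (12.6%) were called, where 14.1% of all CpGs were. Promoters held 48 called CpGs of 436 (11.01%, where 11% of the CpGs in promoters of all genes were called) and bodies 443 of 2191 (20.22%, where 21.1% of those in all bodies were). The fidelity score, the share of the 14 clonal lines at 0 to 10, 40 to 60 or 90 to 100%, averaged 0.824 over collagen CpGs and 0.833 over all CpGs.

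Runs of at least 4 consecutive called CpGs in 1 direction, at most 500 bp apart, were found in 4 of the 39 collagen genes (10.3%), against 15.5% of 14981 genes with at least 4 measured CpGs. In Col27a1, 5 intronic CpGs (chr4:63278911-63279055) had 7.44, 18.9 and 31.5% in MEF-1 lines and 40.8, 58.9 and 64.7% in MEF-2 lines. In Col18a1, 6 intronic CpGs (chr10:77097733-77097989) had 14.4, 21.5 and 28.6% against 54.4, 58.7 and 65%. In Col8a2, 5 CpGs (chr4:126296639-126296817) had 28.1, 52.2 and 59.8% against 87.7, 95.7 and 98.6%. Only the run in Col11a2 (chr17:34064834-34064906), with 1 CpG in a coding exon and 4 in an intron, was higher in MEF-1, at 60.5, 80.3 and 86.5% against 16.2, 22.9 and 39.7%. These runs were chosen by their calls, so the values are a description. Parental libraries lay within the range of their own lines, except the MEF-2 parental library at Col27a1 (34.8%) and the MEF-1 parental library at Col8a2 (60.1%). Sequences of the runs show how the called CpGs (capitals) are spaced, with Col27a1 and Col11a2 on the + strand and Col18a1 on the - strand.
Col27a1 run: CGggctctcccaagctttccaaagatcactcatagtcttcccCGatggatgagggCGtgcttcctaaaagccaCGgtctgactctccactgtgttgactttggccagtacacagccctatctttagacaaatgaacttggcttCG
Col18a1 run: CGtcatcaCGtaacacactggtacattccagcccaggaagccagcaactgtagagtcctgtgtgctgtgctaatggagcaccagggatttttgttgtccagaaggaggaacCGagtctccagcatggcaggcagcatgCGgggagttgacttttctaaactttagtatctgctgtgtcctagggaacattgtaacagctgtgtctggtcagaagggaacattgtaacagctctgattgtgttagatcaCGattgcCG
Col11a2 run: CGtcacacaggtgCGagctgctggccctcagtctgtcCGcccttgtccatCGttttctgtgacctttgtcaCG

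**Figure D5:**
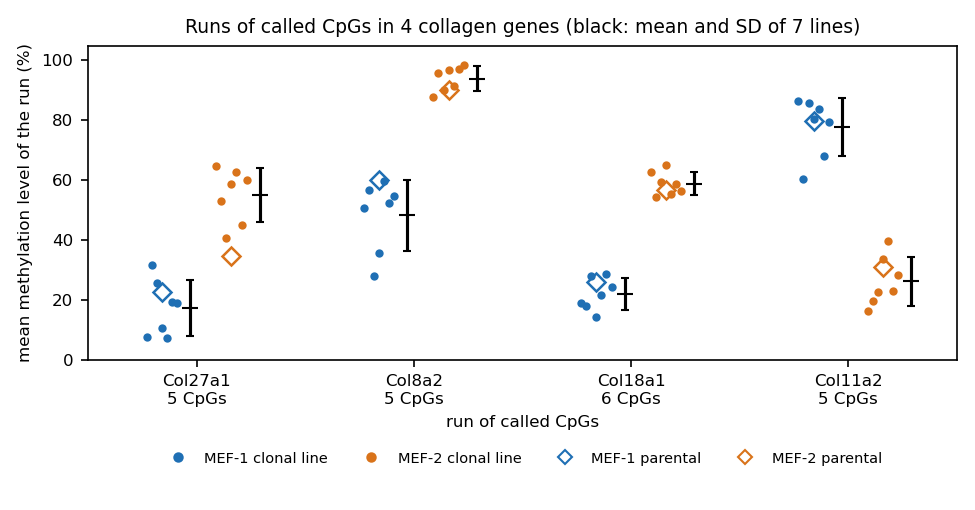
Mean level (%) over the CpGs of each run of called CpGs in the 16 libraries, with clonal lines and parental libraries as separate marks for each family. MEF-1 and MEF-2 lines are apart in all 4 runs, with MEF-1 lower in Col27a1, Col8a2 and Col18a1 and higher in Col11a2.

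Some collagen stretches had the same state in all libraries. Of 196 stretches in 38 genes, 17 (in 14 genes) were under 10% in all 16 libraries, and 3 of these began more than 10000 bp from the start. Another 12 (in 9 genes) were over 90% in all 16, none of them within 2000 bp of the start. Averaged over lines, coverage of a tested collagen promoter or body in MEF-1 relative to MEF-2 lay between 0.865 and 1.157. Over whole collagen genes, single lines were farther from the median MEF-2 line, from 0.653 (Col1a2 in MEF-1 line 4) to 1.534 (Col20a1 in MEF-1 line 1). Over whole chromosomes with collagen genes, the lowest values were 0.780 (chromosome 16, MEF-1 line 6) and 0.784 (chromosome 2, MEF-2 line 3), and the highest were 1.342 (chromosome 5, MEF-1 line 7) and 1.283 (chromosome 15, MEF-1 line 5). The part of coverage in the differences was not tested.

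Genes that make, modify, cut or bind collagen were read in the same way (41 genes). Of 30 promoters tested, 12 were called (43.1% of all promoters), 10 of them higher in MEF-1 (26.9% of all), and 2 differed by at least 20 points (4.53% of all promoters). These were P4ha2, a prolyl 4-hydroxylase subunit (88.2% ± 4.97 against 65.3% ± 6.15), and P3h3, a prolyl 3-hydroxylase (34.2% ± 6.02 against 13.8% ± 5.17). Of 34 bodies, 13 were called (47.7% of all bodies), 5 higher in MEF-1 (30.1% of all) and 8 in MEF-2 (17.6% of all), and 1 differed by at least 20 points (3.95% of all bodies). This was P4hb, the partner subunit of the prolyl 4-hydroxylases, with 41.7% ± 4.16 in MEF-1 and 76.1% ± 4.79 in MEF-2 (adjusted p = 5.6e-06).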

How the data were processed

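Target capture bisulfite sequencing of 16 libraries was analysed. According to the methods of the study, the authors used Trim Galore 0.6.0 for trimming and Bismark for alignment (mm10), removed poorly mapped reads and merged the 2 strands of a CpG, and they name no step against PCR duplicates. The library files as deposited hold counts of unmethylated and methylated reads per CpG. The authors' series table is limited to CpGs that reach 10 reads in every library, without chromosomes 12, 18, 19, X and Y. Its deposited percent methylated follows from the counts and was not used, and its deposited fidelity score is a fraction of the 14 clonal lines. All 1203687 CpGs had the counts of the library tables, and 113 were not at a CpG of the GRCm38 (mm10) reference.

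Gene starts and ends came from GENCODE M21 and sequences from the RefSeq GRCm38 genome. Printed levels are means over CpGs; SDs are over lines. Families (7 against 7 clonal lines) were compared by a quasi-binomial logistic model of pooled counts per promoter (2000 bp upstream to 500 bp downstream), body or CpG (F-test, dispersion at least 1), over windows with at least 3 CpGs, with Benjamini-Hochberg adjustment over all genes or CpGs and a threshold of 0.05. Limma (3.58.1) on mean levels was an alternative, beside at least 20 reads, at least 5 CpGs per window, other windows, leaving out lines, and line number as a block. Python 3.11.15, numpy 2.4.6, pandas 2.3.3, scipy 1.17.1 and R 4.3.3 were used. On simulated data, added differences of 10 points were called in 39% of changed promoters and 31% of changed bodies, those of 30 points in 100%, and 5.44 and 5.76% of calls fell on unchanged windows. The simulation drew independent lines with a spread set in advance and changed 100 windows per size of difference. Its rates therefore may not carry over to the real data.

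The line numbers were checked for pairing: over 26263 windows the deviations of same-numbered lines correlated at -0.0241 to 0.026, and 1 of 7 lines was best matched by its own number, so the numbers only name lines. Lines come from 1 culture per family, so p-values weigh a family difference against the spread between lines of a culture. They do not show whether such a difference would recur in other embryos. Wilson intervals (95%) cover counting error only and take calls as independent, so they may be too narrow. Genes named are all members of the 3 classes, other members with a called difference of at least 10 points, the 5 promoters and 5 bodies with the largest SD over lines, and members with a run of called CpGs; Col6a2, Col8a1, Col12a1, Col13a1, Col19a1, Col20a1, Col23a1 and Col26a1 fall outside this rule and were named after their values were seen. The members, classes, marker and pathway lists were chosen with earlier results of these data known.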

Additional observations from a re-analysis of the deposited data

Results flagged for a closer look

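With 7 lines per family and 60 collagen promoters and bodies, 120 groups of lines were searched for a line far from the other 6 (Dixon's ratio). Of these, 12 were found, and MEF-2 line 4 held 4 of the 12. Chance would give about 6 (1 in 20) for independent groups with normally spread levels. The groups here share the same lines and levels are bounded, so this number is only a rough guide. The share over all genes was not computed.

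At promoters, MEF-2 line 4 had 58.35% at Col9a3 (other MEF-2 lines up to 46.0%) and 18.36% at Col18a1 (9.70 to 12.6%). MEF-2 line 7 had 13.51% at Col26a1 (4.0 to 7.75%). MEF-1 line 3 had 14.17% at Col5a3 (3.29 to 7.44%), MEF-1 line 7 had 55.5% at Col6a6 (25.9 to 37.6%), and MEF-1 line 1 had 21.58% at Col8a1 (9.35 to 14.6%).

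At bodies, MEF-2 line 4 had 50.32% at Col6a3 (41.7 to 44.9%) and 41.17% at Col1a1 (33.2 to 36.1%). MEF-1 line 3 had 50.63% at Col11a1 (38.9 to 43.4%). MEF-2 line 2 had 0.4796% at Col1a2 (1.21 to 1.76%), MEF-2 line 3 had 27.34% at Col13a1 (29.6 to 31.1%), and MEF-2 line 6 had 36.57% at Col2a1 (33.6 to 34.8%).

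At the Col8a2 promoter the clonal lines moved in opposite directions from their parental library. All 7 MEF-1 lines were above it, by 12.39 points on average, and all 7 MEF-2 lines were below it, with a difference of -2.918 points. The difference between the families in this respect was not tested, and it rests on 3 CpGs in 1 parental library each.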

How the results depend on the processing

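The 7 called promoters kept direction and call in 132 of 134 comparisons with an alternative, and 5 of them in all that applied. Of the 18 called bodies, 8 did in all that applied, and none reversed. An alternative applied only where it left a window enough CpGs. The promoters of Col8a2 and Col20a1 (3 CpGs each) and the Col20a1 body (4 CpGs) were thus not tested with at least 5 CpGs. Counts of called promoters were 7 to 8 when leaving out 1 line, 10 with limma, 8 with the replicate block (line number), 7 without MEF-1 lines 1, 4 and 5, 5 with at least 5 CpGs, 7 with the 1000 bp upstream alone, and 4 of 12 with at least 20 reads. Called bodies numbered 16 to 20 leaving out 1 line, 23 with limma, 15 with the block, 13 without MEF-1 lines 1, 4 and 5, 17 with at least 5 CpGs, 16 from the gene start and 19 with at least 20 reads. Called CpGs numbered 420 to 470 leaving out 1 line, 473 with limma, 408 with the block, 325 without MEF-1 lines 1, 4 and 5, and 229 of 1120 with at least 20 reads, which leaves fewer CpGs. Shares over all genes moved too. With limma 50.7% of all promoters and 58.3% of all bodies were called. Without MEF-1 lines 1, 4 and 5 these shares were 32.8 and 37%, and 14.1% of all CpGs. Shares over all for the other settings are not given here, so these counts are not a result about collagen genes in particular. The bodies of Col4a4, Col6a4, Col9a3 and Col2a1 were not called with the block (adjusted p = 0.0706, 0.0743, 0.0551 and 0.055), the Col2a1 promoter was (adjusted p = 0.0284), and the Col7a1 promoter was not with at least 20 reads (1.85 points, adjusted p = 0.0823).

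Class levels over both families moved by more than the spread between lines with at least 20 reads, to 8.648% for interstitial fibrillar promoters (1 gene left, 4.72% as reported), 42.16% for interstitial fibrillar bodies (39.6%), 70.52% for basement membrane bodies (63.8%), 35.42% for cartilage promoters (30.0%) and 47.93% for cartilage bodies (46.1%). Pooling reads gave 65.78% for basement membrane bodies, and the 1000 bp upstream gave 36.85% for cartilage promoters.

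Differences (MEF-1 minus MEF-2, points) that changed sign were small or rested on fewer CpGs; the cause was not tested. With at least 20 reads these were the Col13a1 promoter (1.768) and the bodies of Col3a1 (-0.008658), Col5a1 (4.205, adjusted p = 0.00321), Col27a1 (1.699), Col26a1 (-0.6364), Col1a2 (-0.07946), Col13a1 (-4.214, adjusted p = 0.0354), Col6a2 (0.3405) and Col11a2 (-3.277). With the 1000 bp upstream they were the promoters of Col4a1 (0.1033), Col5a3 (1.383), Col23a1 (-0.006861) and Col8a1 (1.307), and with the body from the gene start Col13a1 (-0.07902). Without MEF-1 lines 1, 4 and 5 they were the bodies of Col3a1 (-0.3073), Col27a1 (0.1554) and Col4a2 (-1.271). Leaving out 1 line turned the promoters of Col26a1 (-0.5615 to 1.021), Col9a2 (-5.031 to 0.04039) and Col8a1 (-2.058 to 0.601) and the bodies of Col4a2 (-0.4478 to 0.8523) and Col12a1 (-0.6302 to 0.3632), none of them called. Depth limits CpGs of under 20 reads, where a single line's level moves in steps of several points.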

Other observations

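Collagen promoters with more CpGs in the reference tended to have lower levels. This was read over the 21 promoters with at least 3 measured CpGs. Pearson's r between the number of reference CpGs and the mean level was -0.455 (Spearman's rho -0.374). Over all 12388 promoters r was -0.295 (rho -0.264). Of the 21, Col20a1 had the fewest reference CpGs (12, with 3 measured) and the highest level (99.7% for MEF-1 lines, 96.8% for MEF-2 lines). The next highest was Col9a3, at 56.2 and 43.7%. The collagen r was not computed without Col20a1, so it does not show a stronger trend than over all promoters. Promoters share libraries and base composition, and these correlations are a description.

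By state, 35.9% of the collagen CpGs were low (under 10%), 37.7% intermediate and 26.5% high (90% or more), where all CpGs had 38.7, 38.1 and 23.2%. In collagen promoters 69.5% were low and 2.98% high. Lines of a family spread more at collagen genes than at the median gene: the median SD was 2.23 points in MEF-1 and 3.60 in MEF-2 at promoters, against 1.43 and 1.74 for all promoters, and 2.41 and 2.54 at bodies against 1.82 and 2.25. These medians were not tested against each other.

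The MEF-1 parental library lay outside the range of its own 7 lines at 3 of 21 promoters and 5 of 39 bodies, where it did at 17.7% and 16.01% of all. The MEF-2 parental library did so at 1 promoter and 4 bodies, where the shares over all genes were 16.1% and 19.2%.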
